A study of Homo sapiens with 4 samples.

Results

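The inhibitor of apoptosis genes were followed across the arrays of HCT116 cells with silenced N-BLR. Probe spots other than controls were taken where the array design names BIRC1, BIRC2, BIRC3, BIRC4, BIRC5, BIRC6, BIRC7, BIRC8 or DIABLO, which gave 11 probes for 9 genes among 41000 different probes with 27719 gene names. BIRC4 is the older name of XIAP and BIRC1 that of NAIP. HCT116 is an established human colon carcinoma line, and N-BLR is a long non-coding RNA. RNA of clone #3-1 and of clone #4-7, each a stable line with an N-BLR shRNA vector, was compared with RNA of 1 control clone carrying the empty vector. Each clone was hybridised to 2 arrays of 2 colours, which the labels call biological replicates, and each shRNA line is 1 clone, so that the shRNA and the clone cannot be told apart. By the labels, all 4 arrays carried the clone with the shRNA in Cy5 against the control in Cy3, with no exchange of dyes. The labels do not say whether the arrays of a clone came from separate cultures, so that the p-values measure only the spread between arrays.

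Inhibitor of apoptosis proteins share the BIR domain, with which XIAP binds and blocks caspases, the proteases that carry out apoptosis. The related c-IAP1 and c-IAP2, encoded by BIRC2 and BIRC3, are ubiquitin ligases of the TNF receptor complex and steer NF-kB signalling, and survivin, encoded by BIRC5, works mainly in mitosis as a subunit of the chromosomal passenger complex. DIABLO, also called Smac, leaves the mitochondria in dying cells and releases caspases from XIAP.

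The letters that read a member's signal are shown for 5 of the 60-base probes, from the ubiquitin ligases down to the BIRC1 probe that differed from its partners, each printed 5′ to 3′ in lower case with no base set apart. BIRC2 at chr11:101753601-101753660 on the plus strand and XIAP at chrX:122766407-122766466 on the plus strand belong to the ubiquitin ligases. BIRC6 at chr2:32744291-32744350 on the plus strand, BIRC7 at chr20:61340210-61340269 on the plus strand and the third BIRC1 probe at chr5:70311512-70311571 on the minus strand complete the set. Positions refer to build hg17, as the file headers give it.
BIRC2 A_24_P115774: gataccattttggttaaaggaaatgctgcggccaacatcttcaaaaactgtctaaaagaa
BIRC4 A_23_P22460: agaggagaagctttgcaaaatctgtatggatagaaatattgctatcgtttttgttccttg
BIRC6 A_23_P142616: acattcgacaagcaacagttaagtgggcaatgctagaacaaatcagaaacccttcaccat
BIRC7 A_23_P79769: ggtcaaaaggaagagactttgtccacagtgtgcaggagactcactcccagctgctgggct
BIRC1 A_24_P72139: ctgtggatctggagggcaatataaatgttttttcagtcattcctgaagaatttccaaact
The other probes were those of BIRC3 (chr11:101713566-101713625, plus strand), BIRC5 (chr17:73732315-73732374, plus), BIRC8 (chr19:58485484-58485543, minus) and DIABLO (chr12:121217438-121217497, minus). A further pair of BIRC1 probes lay at chr5:70300347-70300406 and chr5:70300985-70301044 on the minus strand. The share of G and C in the 11 probes ran from 28.3% for a BIRC1 probe to 55% for the BIRC7 probe.

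Each array held 43376 probe spots, of which 68.5% to 71.8% were well above background in Cy3 and 71.5% to 72.6% in Cy5. Epithelial markers were as the label of the line would have it, with 5 of 6 well above background in all 8 readings (4 arrays in 2 dyes) and VIL1 in 0. Of markers of cells the line should not hold, the leukocyte gene PTPRC, the endothelial genes PECAM1 and CDH5 and the fibroblast genes COL1A2, COL3A1 and LUM were well above background in 0 of 8, while CD3E, CD14, VWF and COL1A1 were so in all 8. None of the 41000 probes held a target site of the 4 N-BLR siRNAs (19 bases, either strand). Only these sites were searched. Whether a probe lies elsewhere in N-BLR was not tested, and the knockdown itself was not read here.

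The channels went against their labels on these arrays. With Cy3 taken alone, 7542 of the 41000 probes (18.4%) differed between the arrays of clone #3-1 and those of clone #4-7 at limma's p under 0.001, 1050 of them by at least 2-fold, although the labels put the same control in Cy3. With Cy5 alone, labelled as the clone, 38 probes (0.0927%) differed, 0 by at least 2-fold. The same split appeared when single channels were scaled by quantiles without loess, with 7860 probes in Cy3 and 47 in Cy5. Every ratio below is Cy5 over Cy3, which the labels make the clone over the control, and "higher" or "lower" means higher or lower in Cy5; if the labels of the dyes were exchanged, each sign would turn, and the labels do not settle this. By this direction CDH1, which encodes E-cadherin, had log2 ratios of -2.60 in clone #3-1 and -1.35 in clone #4-7, and VIM, which encodes vimentin, 4.45 and 2.38. This direction opposes the study's account of both genes. For both clones the study reported raised E-cadherin and reduced vimentin, by its array analysis, qRT-PCR and immunofluorescence. A western blot of E-cadherin was also shown there. These other assays were not read here.

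BIRC3, whose product c-IAP2 is a ubiquitin ligase of the TNF receptor complex, had the widest contrast between the clones of all members. Its log2 ratio was -1.30 and -1.37 on the arrays of clone #3-1 and 1.03 and 0.98 on those of clone #4-7, so that both arrays of each clone lay far on their own side of 0. The mean of -1.34 ± 0.05 (SD, n = 2) was 2.53-fold lower (limma, Benjamini-Hochberg adjusted p = 1.7e-05), and the mean of 1.00 ± 0.03 (SD, n = 2) was 2.01-fold higher (limma adjusted p = 3.5e-05). With the dyes exchanged both signs would turn, with 1.34 for clone #3-1. The clones differed by -2.34 on the log2 scale (95% interval -2.46 to -2.22, limma adjusted p = 2.9e-05), a size that exceeded that of 99.8% of all probes. Fewer copies in each cell and fewer cells that express a gene cannot be told apart in such bulk RNA.

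The difference lay in the channel labelled as control. The Cy5 intensity of BIRC3 was 1105 and 1121 on the arrays of clone #3-1 and 1171 and 1183 on those of clone #4-7. In Cy3 the intensity was 988 and 1035 on the former but 219 and 219.7 on the latter, a 4.61-fold gap between the means, with local backgrounds between 52 and 59. After normalisation, Cy3 alone differed by 2.34 on the log2 scale (limma adjusted p = 3.4e-05), and Cy5 alone by -0.00 (95% interval -0.16 to 0.15, limma adjusted p = 0.99).

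**Figure D1:**
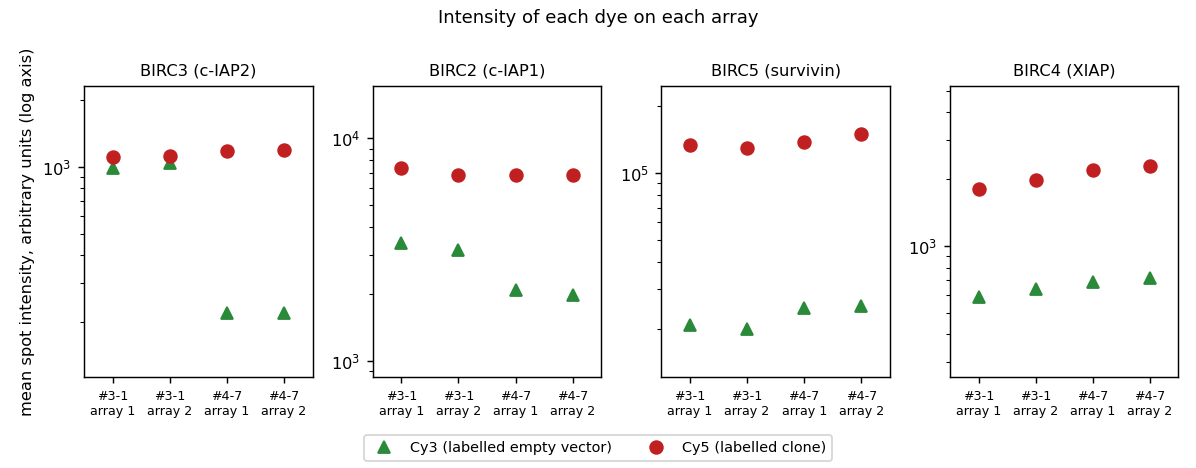
Mean spot intensity (arbitrary units, log axis) of BIRC3, BIRC2, BIRC5 and BIRC4 in Cy3 (triangles, labelled empty vector) and Cy5 (circles, labelled clone) on each of the 4 arrays; the ordinates differ between panels but each spans the same fold range. The Cy3 points of BIRC3 drop from 988 and 1035 on the arrays of clone #3-1 to 219 and 219.7 on those of clone #4-7, while its Cy5 points stay between 1105 and 1183.

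BIRC2 lies next to BIRC3, with 40.0 kb between the probes, and encodes c-IAP1. Its log2 ratio was -0.56 and -0.57 on the arrays of clone #3-1 and 0.06 and 0.07 on those of clone #4-7. The ratio of clone #3-1 was lower by 1.48-fold (limma adjusted p = 6.9e-05), while that of clone #4-7 did not pass (0.07, 95% interval -0.00 to 0.14, limma adjusted p = 0.093). The clones differed by -0.63 (limma adjusted p = 0.00027). As for BIRC3, the Cy5 intensities were alike, at 7359, 6863, 6834 and 6841 on the 4 arrays. In Cy3 they were 3375 and 3154 on the arrays of clone #3-1 and 2074 and 1965 on those of clone #4-7, and Cy3 alone differed by 0.80 on the log2 scale (limma adjusted p = 0.00088). For Cy5 alone the difference was 0.16 (95% interval -0.02 to 0.34, limma adjusted p = 0.68). With the dyes exchanged the BIRC2 ratios would be 0.57 and -0.07.

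BIRC5 had the largest ratio in the same direction in both clones. Its probe was printed 10 times on each array, and the averaged log2 ratio was 0.85 and 0.83 in clone #3-1 and 0.58 and 0.59 in clone #4-7. The 10 spots had SDs between 0.029 and 0.055, and the lowest single spot of the 4 arrays read 0.52. Survivin transcript was thus 1.79-fold higher in Cy5 in clone #3-1 (limma adjusted p = 2.7e-05), and it was higher by 0.58 on the log2 scale in clone #4-7 (limma adjusted p = 7.6e-05). With the dyes exchanged the values would be -0.84 and -0.58. The gap between the clones, 0.26 (95% interval 0.16 to 0.36), did not pass the unadjusted threshold of 0.001 (limma adjusted p = 0.005). The intensities were 20683, 19802, 24661 and 25189 in Cy3 and 133766, 130041, 138091 and 149990.2 in Cy5, in the order of clone #3-1 then clone #4-7.

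XIAP, a direct inhibitor of caspases, stayed close to a ratio of 1. The log2 ratio of its BIRC4 probe was 0.12 and 0.09 on the arrays of clone #3-1 and 0.16 and 0.08 on those of clone #4-7, all 4 above 0 and overlapping between the clones. The mean of 0.10 (95% interval 0.02 to 0.19, limma adjusted p = 0.049) and that of 0.12 (95% interval 0.03 to 0.20, limma adjusted p = 0.033) did not pass p under 0.001. With the dyes exchanged they would be -0.10 and -0.12. The clones differed by -0.02 (95% interval -0.14 to 0.11), and with 2 arrays a clone a difference anywhere in that interval remains possible. The Cy3 intensity ran from 589.7 to 715 and the Cy5 intensity from 1807 to 2279, and neither dye alone differed between the clones (Cy3 -0.09, Cy5 -0.11, limma adjusted p = 0.28 and 0.68).

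**Figure D2:**
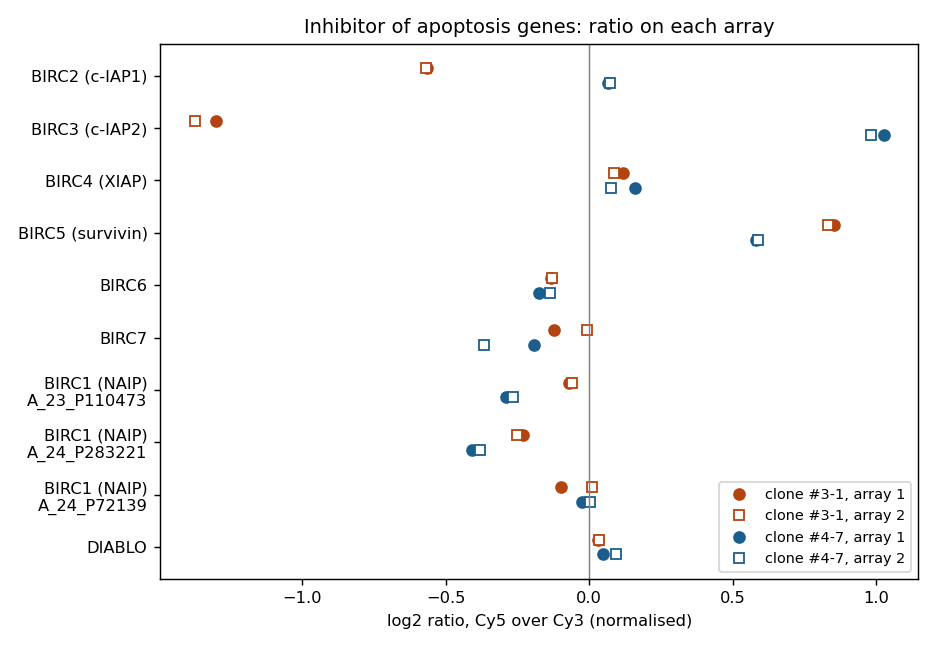
Log2 ratio of Cy5 over Cy3 of 10 probes of the inhibitor of apoptosis genes and DIABLO on each array. Clone #3-1 is in orange and clone #4-7 in blue, with filled circles for the first and open squares for the second array. BIRC3 lies on opposite sides of 0 in the clones, BIRC5 lies above 0.5 on all 4 arrays and BIRC4 between 0.08 and 0.16; BIRC8, not well above background, is left out.

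The 3 probes of BIRC1, which encodes the inflammasome receptor NAIP, did not give the same result. Probe A_24_P283221 read -0.23 and -0.25 in clone #3-1 and -0.41 and -0.38 in clone #4-7, lower in both clones (limma adjusted p = 0.0013 and 0.00024). Probe A_23_P110473 read -0.07 and -0.06 in clone #3-1, which did not pass, and -0.29 and -0.26 in clone #4-7, which did (limma adjusted p = 0.00079), and the difference of 0.21 between the clones did not pass (limma adjusted p = 0.01). The third probe, A_24_P72139, had ratios between -0.10 and 0.01 and passed in neither clone, at Cy3 intensities of 99.3 to 104 over local backgrounds of 51 to 54, about as dim as BIRC7. On chromosome 5, NAIP has near-identical partial copies that these probes may share, so that its level is uncertain. The calls of the first pair also depended on the setting: in clone #3-1 that of A_24_P283221 was lost under 10 of 17 alternatives, and in clone #4-7 that of A_23_P110473 was lost under 5 of 17, among them the omission of either array of clone #4-7 (-0.26 and -0.29).

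The remaining members had smaller ratios. BIRC6, a very large ubiquitin-conjugating member, read -0.13 on both arrays of clone #3-1 and -0.17 and -0.14 on those of clone #4-7 (limma adjusted p = 0.013 and 0.0071), with Cy3 intensities of 297 to 310.1. BIRC7, which encodes livin, read -0.12 and -0.01 in clone #3-1 and -0.19 and -0.37 in clone #4-7 (limma adjusted p = 0.35 and 0.0084). Its Cy3 intensity of 85.0 to 101 was the lowest of the members read, near a local background of 48 to 49 on 3 arrays, and its arrays differed more than those of other members. DIABLO read 0.03 on both arrays of clone #3-1 and 0.05 and 0.09 in clone #4-7 (limma adjusted p = 0.39 and 0.098), at Cy3 intensities of 4668 to 4767. None of these passed p under 0.001 in either clone. BIRC8, an intronless relative of XIAP, was not well above background in any of 8 readings (Cy3 56.5 to 65.2, Cy5 79.5 to 93.5), and no ratio is given for it.

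Over the family with DIABLO, 1 of 11 probes was higher and 3 lower in clone #3-1, against 16.2% and 16.4% of all probes. In clone #4-7 2 were higher and 2 lower, against 16% and 15%. Between the clones 2 of 11 differed, against 22.5% of all probes. By an adjusted p under 0.05, 6 of 11 probes passed in clone #3-1 (54.6% of all probes), 7 in clone #4-7 (52%) and 5 between the clones (42.4%). These shares were near those of all probes, so these members as a whole did not stand out. The median size of the 11 log2 ratios was 0.10 in clone #3-1 and 0.16 in clone #4-7, beside 0.14 and 0.13 over all probes. A sign that was opposite in the clones and past the threshold in both was seen for 1 member probe, that of BIRC3, and for 1459 of all probes (3.56%).

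The 2 arrays of a clone varied little. Over probes printed 10 times the spots of an array had a median SD of 0.055. Over all probe spots the same spot had a median SD of 0.037 between the 2 arrays of a clone. These medians come from different probes and from 10 against 2 values each, so that their sizes cannot be compared directly. Log ratios of the arrays of a clone correlated at 0.953 and 0.957 across probes, which are not independent replicates, and those of arrays of different clones at 0.396 to 0.408. The p-values describe only the spread between arrays, which was not compared with that between spots for the same probes. The control, 1 clone by the labels, adds no spread of its own.

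Partners of survivin were read from 20 genes of the chromosomal passenger complex and of mitosis. Of these 19 were higher and 0 lower in clone #3-1, and 16 were higher and 1 lower in clone #4-7. Of all probes 16.2% were higher and 16.4% lower in clone #3-1, and 16% and 15% in clone #4-7. In a fit without dim probes (either dye well above background sufficed, on each array), 54.2% and 52.1% passed in either direction. The medians of the list were 0.65 and 0.42, where BIRC5 had 0.84 and 0.58 and all probes 0.01 and 0.01. INCENP, the scaffold of the complex, had 0.75 and 0.93 and CDCA8, which encodes borealin, 0.88 and 0.59. AURKB, its kinase, had 0.50 and 0.52, and all 3 passed in both clones (limma adjusted p at most 0.00021). CCNA2 (0.83 and 0.92) and CCNB1 (0.87 and 0.69), which encode mitotic cyclins, were higher in both as well. MKI67, which encodes the proliferation marker Ki-67 and was picked out after its values were seen, was higher in clone #3-1 (0.53) and lower in clone #4-7 (-0.53).

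The list around c-IAP1 and c-IAP2 held 30 genes of the TNF receptor complex and NF-kB. Of these 9 were higher and 11 lower in clone #3-1, and 16 were higher and 4 lower in clone #4-7, with medians of -0.05 and 0.21. Of all probes 16.2% were higher and 16.4% lower in clone #3-1, and 16% and 15% in clone #4-7. In the fit without dim probes 54.2% and 52.1% passed in either direction. The 11 lower became 2 without either array of clone #3-1, and the 16 higher became 8 and 10 without the first and the second array of clone #4-7. TRAF1, TAB3, NFKB2 and RELA, picked out after their values were seen, were lower in clone #3-1 and higher in clone #4-7. Calls of opposite sign in the clones were seen for 3.56% of all probes. NFKB2, a subunit precursor of NF-kB, read -0.21 and 0.52 and RELA, another subunit, -0.33 and 0.21. Between the clones 10 genes of the list were lower and 2 higher. In either direction 22.5% of all probes passed, and 40.1% did in the fit without dim probes. As 29 of the 30 genes were well above background in all 8 readings, the latter share is the closer one, and the list lay near it. MAP3K14, the kinase NIK that c-IAPs mark for degradation, was lower in both clones (-0.49 and -1.07), while IKBKG (0.37 and 0.78), NFKBIA (0.52 and 0.52) and CYLD (0.46 and 0.65) were higher in both.

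**Figure D3:**
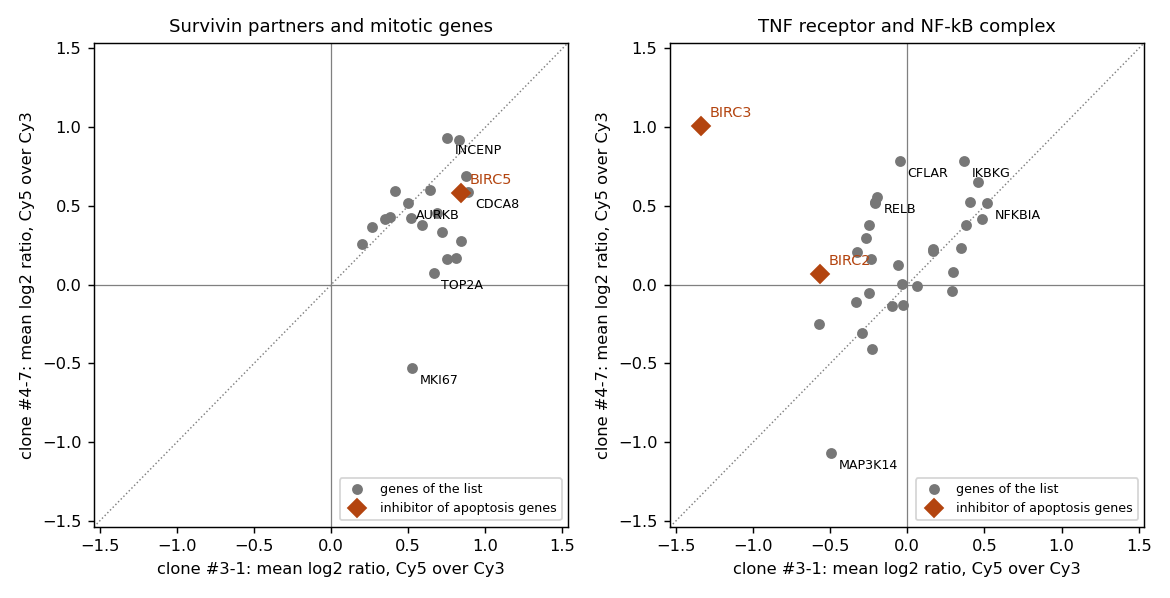
Mean log2 ratio of Cy5 over Cy3 in clone #3-1 (abscissa) against clone #4-7 (ordinate) for the genes of each list (grey) and the inhibitor of apoptosis genes beside it (orange diamonds); the dotted line marks equal ratios. BIRC5 at 0.84 and 0.58 lies among the mitotic genes, while BIRC3 at -1.34 and 1.00 lies outside the range of the TNF receptor and NF-kB genes.

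Among 13 antagonists and regulators of these proteins, 1 was higher and 2 lower in clone #3-1, and 5 were higher and 2 lower in clone #4-7, with medians of -0.04 and 0.18. Of all probes 16.2% were higher and 16.4% lower in clone #3-1, and 16% and 15% in clone #4-7. Without dim probes, 54.2% and 52.1% passed in either direction. HTRA2, a mitochondrial protease that cleaves inhibitor of apoptosis proteins, was lower in both clones (-0.75 and -0.31, limma adjusted p = 4e-05 and 0.00058), and so was SEPTIN4 (-0.37 and -0.30), whose ARTS form binds XIAP. UBE2O, a ubiquitin-conjugating enzyme, was higher in both (0.30 and 0.24). The calls on HTRA2 and SEPTIN4 in clone #4-7 were lost (0 lower in the list) with a normexp offset of 0, with plain background subtraction and without either array of clone #4-7. That on UBE2O in clone #3-1 was lost (0 higher) under the same corrections, with processed signals and without either array of clone #3-1. XAF1, which antagonises XIAP, was well above background in 0 of 8 readings, and no ratio is given.

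CASP9, which encodes the caspase of the apoptosome and is bound by XIAP, read -0.14 in clone #3-1 and -0.01 in clone #4-7 and passed in neither (limma adjusted p = 0.0091 and 0.76). In the list of 10 genes of caspases and the apoptosome 3 were higher and 2 lower in clone #3-1, and 4 were higher and 1 lower in clone #4-7. Medians were 0.05 and 0.17, beside the same shares of all probes and of the fit without dim probes. PARP1, a caspase substrate, was lower in both (-0.46 and -0.74), and BAK1 (0.41 and 0.92), BID (0.25 and 0.62) and CYCS (0.31 and 0.33), which act in the release of cytochrome c or encode it, were higher in both. BAX, which acts with BAK1 and was named after its values were seen, was lower in clone #3-1 (-0.32, limma adjusted p = 0.00096) and did not pass in clone #4-7 (-0.18). In clone #3-1 the calls on BAK1, BID and CYCS were lost (0 higher in the list) with a normexp offset of 0, plain subtraction, processed signals and without the second array of clone #3-1. These lists share their control samples with the members, and their ratios are given side by side only.

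Around BIRC3 on chromosome 11, a window chosen after its values were seen, 29 other probes beside that of BIRC2 lay within 1 Mb. Of these, 12 probes of 11 genes or unnamed transcripts were well above background in all 8 readings. Their differences between the clones ran from -2.02 to 0.36, with 4 past the threshold and 3 of these lower. Over all probes 22.5% passed, and 40.1% did in a fit without dim probes (either dye well above background sufficed, on each array), so that 4 of 12 lay between these shares. MMP7, a matrix metalloproteinase 186 kb from BIRC3, read -1.84 in clone #3-1 and 0.19 in clone #4-7. DCUN1D5 differed by -0.48, an unnamed transcript 8.95 kb from BIRC3 by -0.41, and a probe of YAP1 by 0.36. Between BIRC2 and MMP7, a probe of TMEM123 (-0.07) and probes of 2 unnamed transcripts (0.07 and -0.32) did not pass. Another TMEM123 probe, outside the 12 because its spot was an outlier on the first array of clone #3-1, differed by 0.30. MMP1, read well above background in 2 of 8 readings only, differed by -0.84.

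**Figure D4:**
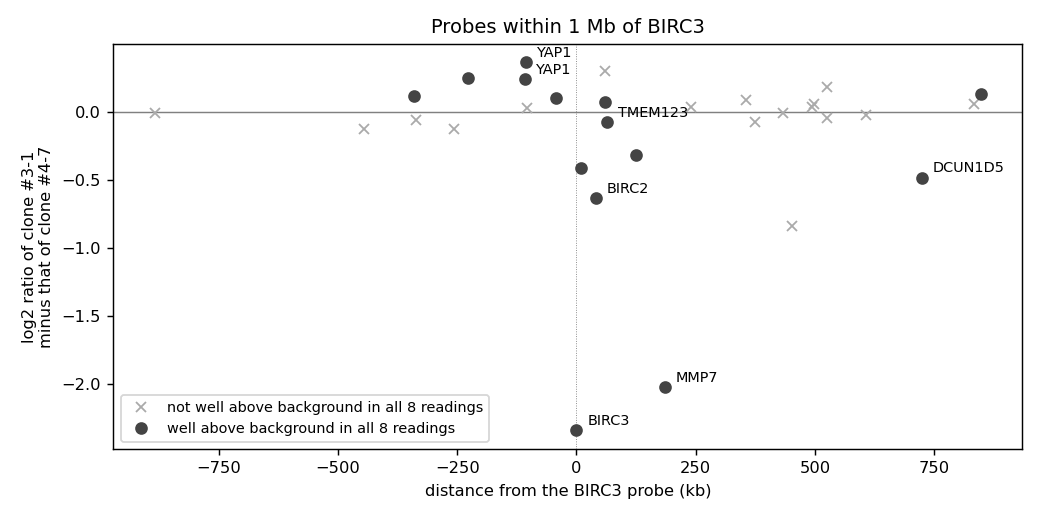
Difference in log2 ratio (clone #3-1 minus clone #4-7) of probes within 1 Mb of BIRC3 against their distance from the BIRC3 probe in kb; filled circles were well above background in all 8 readings and crosses were not. BIRC3 (-2.34) and MMP7 (-2.02) stand far below their neighbours, and BIRC2 lies at -0.63.

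The promoter of BIRC3 is shown because its gene differed most and is a known target of NF-kB, whose subunit genes are given above. It is the RefSeq sequence of the 250 bases before the transcription start (build GRCh38.p14, chr11:102317234-102317483, plus strand), and the capitals mark matches, on either strand, to an NF-kB-type motif of 3 G, 5 bases of any kind and 2 C, 199 and 135 bases before the start.
BIRC3: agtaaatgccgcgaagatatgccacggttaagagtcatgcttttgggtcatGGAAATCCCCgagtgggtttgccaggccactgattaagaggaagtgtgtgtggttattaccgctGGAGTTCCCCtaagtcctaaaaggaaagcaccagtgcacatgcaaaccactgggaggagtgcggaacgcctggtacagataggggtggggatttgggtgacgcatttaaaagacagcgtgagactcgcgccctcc
This loose motif occurred in 54.4% of 35116 promoters of the same length, and at least 2 matches, overlaps and strands counted separately, in 35.5%. Among the members 6 of 9 genes had an entry, with 13 promoters, of which 11 held the motif, so that it was not particular to BIRC3. The matches are a description of the letters and not of binding.

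By pattern over the 4 arrays, the genes nearest to XIAP among 25226 candidate probes well above background were ENPP7, GORASP2 and LMAN2, at Euclidean distances of 0.015, 0.028 and 0.031 in log2 ratio. Those nearest to BIRC5 were STARD8 (0.051), UBQLN1 (0.057) and KPNA2 (0.059), and KPNA2, an importin, read 0.88 and 0.57. For BIRC3, taken up after its values were seen, the nearest were CPA4 at 0.176 (-1.27 and 1.07) and FRZB at 0.212 (-1.21 and 1.09), both farther off than for the other members named.

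How far these values moved with the processing is shown by the plot of estimates under each alternative. The estimates of BIRC3, BIRC2 and BIRC5 kept their places, while that of BIRC7 in clone #4-7 ranged from -0.73 to -0.19.

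**Figure D5:**
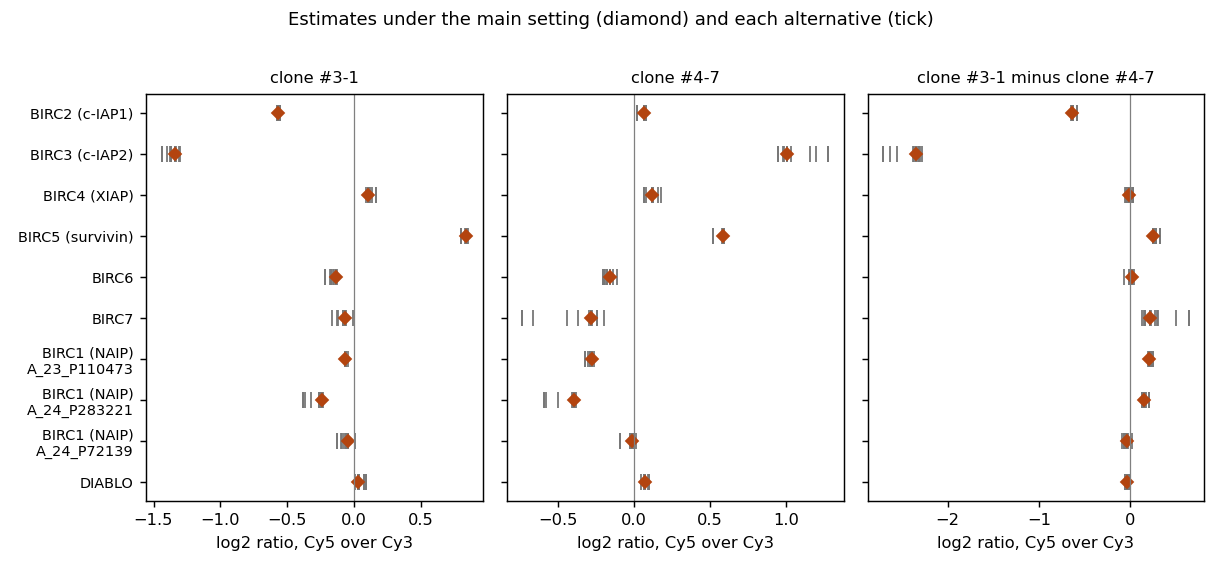
Log2 ratio of Cy5 over Cy3 of 10 probes of the inhibitor of apoptosis genes and DIABLO, for clone #3-1, clone #4-7 and their difference. Diamonds mark the main setting and ticks each alternative. The difference of BIRC3 stays between -2.71 and -2.29 and that of BIRC2 between -0.64 and -0.58 under all 16 alternatives.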

How the data were processed

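RNA of 2 stable N-BLR shRNA clones and of an empty vector clone of HCT116 was hybridised to 4 Agilent 2-colour arrays, with 1 control RNA by the labels. Per the file headers, the deposited values are spot intensities with local backgrounds in both dyes, not normalised, beside processed intensities corrected by Agilent Feature Extraction (8.5.1.1 per the submitters' notes, 9.5.3.1 per the file headers). The authors also deposited the log10 ratio of Cy5 over Cy3 and 0 or 1 flags for outlier, saturated and dim spots (other values, per the file headers). The labels speak of lentivirus, the methods of transfection.

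R 4.3.3 with limma 3.58.1 was used. Mean intensities were background-corrected (normexp, offset 50), normalised by loess within and quantiles between arrays, and averaged per probe on the log2 scale. Outlier spots (87 to 125 an array) were left out. A model with a term per clone was fitted over all 4 arrays and 41000 probes, and ratios and their difference were tested with limma's moderated test at unadjusted p under 0.001, the study's threshold, with Benjamini-Hochberg adjusted p beside it. Testing the log2 ratio against 0 takes no account of how control samples vary, and 2 arrays a clone limit the precision. The code was tested on simulated data.

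Every member probe was named, and per list the 4 genes with the smallest F test p past the threshold in both clones in 1 direction, with further genes chosen as partners, some of which are not reported here. Genes were read by their brightest probe. RefSeq symbols matched 23434 probes by accession. Members and lists were chosen with earlier results of these data known. Single-channel fits, the chromosome 11 window and the likeness to BIRC3 were added after the values were seen. Alternatives were offset, background method, signal, scaling, probe filter, variance prior, threshold, replicate block and omission of each array.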

Additional observations from a re-analysis of the deposited data

Results flagged for a closer look

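BIRC3 and BIRC2 were singled out because the clones differed by limma's test of the difference itself. The log2 ratio of clone #3-1 minus that of clone #4-7 was -2.34 for BIRC3 (limma adjusted p = 2.9e-05) and -0.63 for BIRC2 (limma adjusted p = 0.00027), and both arrays of clone #3-1 lay below both of clone #4-7 for either gene. In both genes the intensity that moved was Cy3, the channel labelled as the shared control, and whether the labels of the dyes were exchanged was not tested.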

How the results depend on the processing

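BIRC3 and BIRC2 kept sign and call between the clones under 16 alternatives (-2.71 to -2.29 and -0.64 to -0.58), and BIRC5 in each clone under 17 (0.80 to 0.85 in clone #3-1, 0.52 to 0.59 in clone #4-7). The difference of BIRC5 between the clones passed under 4 of 16. Single-channel quantiles without loess, added after seeing the data, gave 0.0485 for BIRC3 in Cy5 alone, not past the threshold. Counts of member probes rest on few calls. In clone #4-7 the 2 lower became 1 with a normexp offset of 0, with plain background subtraction and with Feature Extraction processed signals, and 4 with an intensity trend and with adjusted p under 0.05; leaving out single arrays gave 1 to 2, with 1 when either array of clone #4-7 was left out. The 0 higher between the clones (limma; 4 at unadjusted p under 0.05) became 1 in the authors' log10 table, 2 with only probes well above background, 2 with the trend and 3 with adjusted p under 0.05, which also gave 2 higher in clone #3-1 in place of 1. Signs that turned were not past the threshold on either side. The difference of BIRC4 was 0.0354 with processed signals and in the authors' table, 0.0373 with Aquantile or no scaling between arrays, and -0.0555 to 0.0254 leaving out an array. That of BIRC6 was -0.0164 with processed signals and in the authors' table and -0.0653 with median signals, and that of DIABLO 0.0034 with Aquantile or no scaling. BIRC1 probe A_24_P72139 was 0.0130 in clone #4-7 with median signals; leaving out an array gave -0.0975 to 0.0104 in clone #3-1, -0.0259 to 0.0029 in clone #4-7 and -0.0860 to 0.0219 for the difference. The cause was not tested. Over all probes, calls ranged from 6262 to 22379 in clone #3-1 (13355 as reported), 5721 to 21315 in clone #4-7 (12702) and 3447 to 17396 between the clones (9220). Mitotic genes higher ranged from 17 to 20 and 11 to 18, and TNF receptor and NF-kB genes from 2 to 14 lower in clone #3-1 and 8 to 18 higher in clone #4-7. Antagonists and regulators ranged from 0 to 4 higher and 1 to 3 lower in clone #3-1 and from 1 to 7 and 0 to 4 in clone #4-7, and caspase and apoptosome genes from 0 to 5 and 1 to 4, and from 2 to 6 and 1 to 3.

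The replicate numbers did not pair the arrays (r = -0.013 between deviations over 40940 probes). With the replicate block, 11291, 10578 and 7277 probes passed in clone #3-1, in clone #4-7 and between the clones, and among members the call of BIRC1 probe A_24_P283221 in clone #3-1 (-0.24) was lost. Leaving out an array of a clone assumes that the lone array varies like the others. With 2 arrays a clone, 1 control clone and no exchange of dyes, dye effects and the control's own variation cannot be told apart from the ratios, and BIRC7, BIRC8 and BIRC1 probe A_24_P72139 were limited by signal close to background.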
